A study of Mus musculus with 57 samples.

Results

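Lep, the gene that encodes leptin (ENSMUSG00000059201), was 1 of 52853 genes in the count tables, taken by its symbol from all 41 columns, each of which holds 1 tissue of 1 male mouse. RNA sequencing compared mice homozygous for the R707W change in Mfn2 (knock-in, KI) with wild-type (WT) mice. Mfn2 encodes mitofusin 2, a protein of the outer mitochondrial membrane that fuses mitochondria. The mice were C57BL/6J, and the KI colony was bred from 1 founder made with CRISPR-Cas9, with the allele present in every tissue. From 5 weeks of age they were fed chow or a high fat diet (HFD, 45% of kcal from fat) for 6 months. The columns hold inguinal white adipose tissue (WAT) on HFD from 8 WT and 8 KI mice, inguinal WAT on chow from 7 WT and 6 KI mice, and brown adipose tissue (BAT) on HFD from 6 WT and 6 KI mice. Each tissue and diet came as a table of its own, so diet or tissue and the table cannot be told apart. Total counts ran from 8042591 to 25680411 per mouse, and Lep had 69 to 111545 counts.

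Leptin is a hormone made almost entirely by adipocytes and secreted in proportion to the fat they store. It acts on its receptor in the hypothalamus, through the kinase Jak2 and the transcription factor Stat3, to restrain food intake and keep up energy expenditure, so that mice without it are obese. White adipocytes transcribe the gene strongly and brown adipocytes weakly. Its transcription falls with fasting and rises with insulin, glucocorticoid and the filling of the adipocyte, while adrenergic signals and cold lower it.

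Lep lies on chromosome 6 from 29060220 to 29073877, plus strand (GRCm38), with a summed exon length of 3354 bases in the tables. GENCODE vM21 gives it 2 transcripts of 3 exons each. In the longer one, exon 1 has 29 bases and is noncoding, exon 2 holds 144 coding bases and exon 3 holds 357, which together make 167 codons with the initial methionine and without the stop codon. No other annotated gene overlaps it, so its counts are not shared with a gene on either strand. The 249 bases before exon 1 of the longer transcript are shown because that transcript carries the full coding sequence. The window is chr6:29059971-29060219 on the plus strand, from RefSeq on GRCm38, written in lower case with motifs in capitals.
Lep promoter: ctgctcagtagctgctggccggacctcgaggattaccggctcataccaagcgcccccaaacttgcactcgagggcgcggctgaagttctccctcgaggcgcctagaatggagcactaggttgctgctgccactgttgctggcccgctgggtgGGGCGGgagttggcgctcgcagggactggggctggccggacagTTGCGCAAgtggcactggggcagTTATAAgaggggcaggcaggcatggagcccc
The first capitals are a GC box (GGGCGG, the core bound by Sp1), which starts 97 bases before exon 1. The second are the palindrome TTGCGCAA, a site of the C/EBP family of adipocyte transcription factors, 54 bases before exon 1. The third hold TATAA on the plus strand, 30 bases before exon 1, and the overlapping copy on the minus strand. On either strand, the palindrome occurs in 0.164% of 32851 RefSeq promoter windows of this length, the GC box in 32.6% and TATAA in 22.8%. CCAAT, the E-box CACGTG and TGATGNAA, a composite site of C/EBP and ATF factors, were not found in this window, and 33.8%, 6.0% and 3.45% of windows hold them.

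The labelled tissues carried their defining transcripts. Ucp1, the uncoupling protein of brown adipocytes, averaged 6164 CPM in WT and 6906 CPM in KI BAT (CPM are counts scaled to a common library size), and at most 0.615 CPM in the groups of inguinal WAT. The adipocyte genes Adipoq, Plin1, Cidec, Lipe and Fabp4 together made 17640 to 34640 CPM in every mouse. Mfn2 itself had log2 fold changes of 0.34 on HFD (adjusted p = 0.0114), 0.36 on chow (adjusted p = 0.0840) and 0.29 in BAT (adjusted p = 0.113) in edgeR's quasi-likelihood test. Gene counts do not show a point mutation, so the genotype labels could not be checked from them.

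Lep was among the most variable transcripts between mice of 1 group. In WT inguinal WAT on HFD its lowest level was 1651, its median 2174 and its highest 3686 CPM. KI mice on HFD had a lowest level of 992, a median of 1510 and a highest of 1821 CPM. The genotypes overlapped, with 5 of 8 KI mice below every WT mouse. In WT inguinal WAT on chow Lep ran from 853 CPM through a median of 1692 to 3094 CPM. In KI mice on chow it ran from 211 CPM through a median of 563 to 1174 CPM. Here 5 of 6 KI mice lay below every WT mouse, and KI mouse 5, the highest, lay within the WT range. In WT BAT the lowest mouse had 16.2, the median was 104 and the highest 215 CPM. KI BAT had a lowest level of 11.1, a median of 32.7 and a highest of 50.7 CPM. Only 1 of 6 KI mice was below every WT mouse in BAT, because WT mice 1 and 2, at 28.8 and 16.2 CPM, lay among the KI mice.

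**Figure D1:**
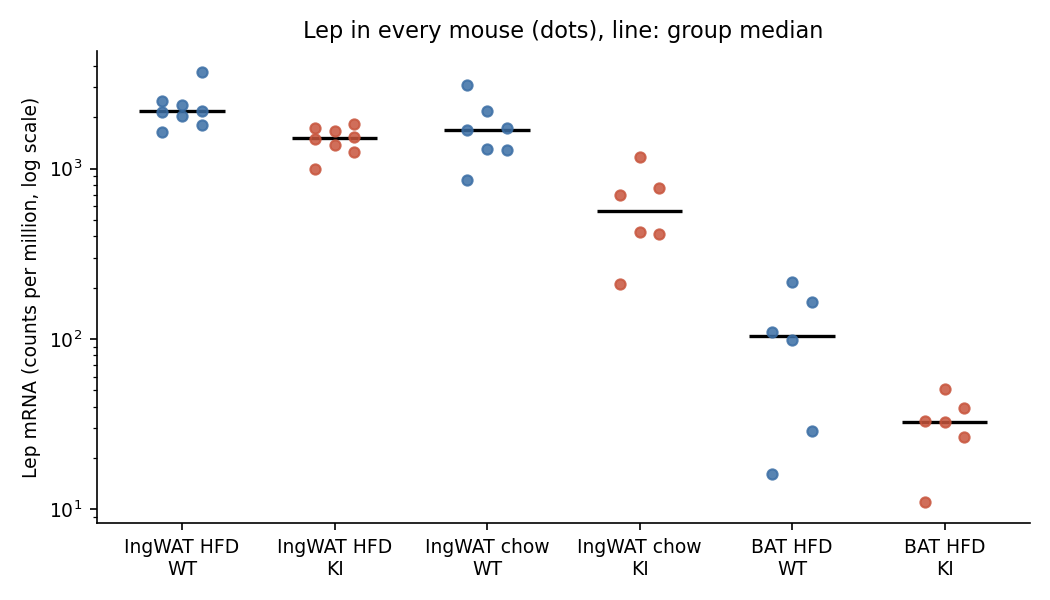
Level of Lep in each mouse (CPM, log axis) in inguinal WAT on HFD, inguinal WAT on chow and BAT on HFD, for WT and KI mice, with a line at each group's median. The KI median is the lower one in all 3 tables, at 1510 against 2174, 563 against 1692 and 32.7 against 104 CPM, and the points of the genotypes overlap in each.

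The spread within a group was wide by the standard of other genes. The SD of log2 (CPM + 1) was 0.35 in WT and 0.29 in KI mice on HFD, 0.60 and 0.86 on chow, and 1.44 and 0.72 in BAT. Among 8487 genes with a mean of at least 10 CPM in every group, these SDs were higher than those of 92.9% and 89.3%, 98.4% and 99.1%, and 99.8% and 98.4% of genes. The highest WT mouse in BAT had 13.3 times the level of the lowest.

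Ordered by mean level, the groups ran from KI BAT at 32.2 ± 13.2 CPM (SD, n = 6) over WT BAT at 106 ± 76.7 CPM (SD, n = 6), KI on chow at 615 ± 341 CPM (SD, n = 6), KI on HFD at 1486 ± 274 CPM (SD, n = 8) and WT on chow at 1733 ± 731 CPM (SD, n = 7) to WT on HFD at 2297 ± 624 CPM (SD, n = 8). Neighbours in this order were compared with 2-sided exact permutation tests of log2 (CPM + 1), adjusted over 5 pairs. The same Lep values set the order and so chose the pairs, which these adjusted p values do not take into account. WT BAT and KI mice on chow differed by 2.80 (adjusted p = 0.0108), and KI mice on chow and on HFD by 1.45 (adjusted p = 0.00333). The other 3 pairs did not differ beyond their spread. KI and WT BAT differed by 1.33 (adjusted p = 0.0989), KI mice on HFD and WT mice on chow by 0.14 (adjusted p = 0.573), and WT mice on chow and on HFD by 0.47 (adjusted p = 0.0989). The level of KI mice on HFD was thus not told apart from that of WT mice on chow.

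Per kilobase of exon, Lep ranked high among adipocyte reference genes in WT white fat and near the bottom in brown fat. Its mean RPKM (the CPM divided by the exon length in kilobases) was 685 in WT on HFD, 443 in KI on HFD, 517 in WT on chow, 183 in KI on chow, 31.5 in WT BAT and 9.61 in KI BAT. Set among 20 adipocyte reference genes of lipid storage, lipolysis and adipocyte identity, it ranked 4 of 21 in WT on HFD and 7 in KI on HFD. On chow it ranked 7 in WT and 14 in KI mice. In BAT it ranked 20 in WT and 21, the last, in KI mice.

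On HFD Lep fell in KI inguinal WAT. Its log2 fold change was -0.62 (standard error 0.151, 95% interval -0.94 to -0.31), a level of 0.649 of that in WT mice (adjusted p = 0.00621, edgeR's quasi-likelihood test). A gene was called at an adjusted p below 0.01, and 11.5% of the 16471 genes tested were called here, 5.24% of them as lower. By p, Lep ranked 1603. It was no longer called without any 1 of WT mice 1, 3, 5 and 6 or KI mice 3, 5, 6 and 7, where the adjusted p lay between 0.0102 and 0.0151.

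On chow the difference was larger and less certain. The log2 fold change was -1.50 (standard error 0.372, 95% interval -2.30 to -0.71), or 0.353 of the WT level, and the adjusted p of 0.0231 missed the threshold. In this comparison 3.23% of 14629 genes were called. Without KI mouse 5 the log2 fold change was -1.79 and the adjusted p 0.00794, past the threshold. DESeq2 gave the same fold with an adjusted p of 2.85e-04. An exact permutation test of Lep alone, added after the values had been seen, gave p = 0.00291 on chow (difference -1.59 on the log2 scale), p = 0.00109 on HFD (-0.61) and p = 0.0714 in BAT (-1.33).

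In BAT the log2 fold change was -1.72 (standard error 0.582), or 0.303 of the WT level (95% interval 0.125 to 0.738). It was not called (adjusted p = 0.101), and 1.83% of 13267 genes were. It was nevertheless the 39th most negative log2 fold change in BAT, while on HFD in inguinal WAT Lep stood at place 1002. WT mice 1 and 2, which had the least Lep, also held skeletal muscle transcripts, with 2701 and 3062 CPM over 8 muscle genes against 4.34 to 35.6 CPM in the other WT mice. Their part in the spread was not tested. Without WT mouse 1 the log2 fold change was -1.91 (adjusted p = 0.0651), and without WT mouse 2 it was -1.95 (adjusted p = 0.0397). It was weaker without WT mouse 4 (-1.55, adjusted p = 0.193) and without WT mouse 5 (-1.38, adjusted p = 0.175, all from edgeR).

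The genotype effect was not shown to depend on diet or tissue. In a fit of the 4 inguinal groups the effect on HFD was less negative than on chow by 0.89 on the log2 scale (standard error 0.383, 95% interval 0.11 to 1.68). This did not pass the threshold (p = 0.0269, adjusted p = 0.225 from edgeR), and 0.632% of genes were called for this difference. The effect in BAT was more negative than in inguinal WAT on HFD by 1.08 (standard error 0.520, 95% interval of the difference -2.15 to -0.01, adjusted p = 0.221), where 2.82% of genes were called. Whether both tissues came from the same mice is not given in the sources used here, and the fit takes them as independent.

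Diet went with different Lep levels in KI mice. KI mice on HFD had 2.43 times the Lep of KI mice on chow (log2 difference 1.28, standard error 0.293, adjusted p = 0.00241 from edgeR), called beside 30.3% of all genes. In WT mice the log2 difference was 0.40 (standard error 0.228, 95% interval -0.08 to 0.88, adjusted p = 0.172), not called, with 27.7% of genes called. That these differ is the same question as the diet difference of the genotype effect, which was not called.

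BAT had far less Lep than inguinal WAT on the same diet, in both genotypes. WT BAT was 21.8 times lower (log2 difference -4.44, standard error 0.533, adjusted p = 4.76e-06) and KI BAT 46.8 times lower (log2 difference -5.55, standard error 0.285, adjusted p = 1.68e-11), in edgeR's test. As 57.1% and 58.4% of all genes were called between these tissues, a call alone says little. Only 0.903% of genes in WT and 0.479% in KI mice had a more negative difference.

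Because fewer adipocytes and less Lep RNA per adipocyte cannot be told apart in bulk tissue, Lep was also set against other adipocyte transcripts of the same library. The mean log2 (CPM + 1) of the 20 adipocyte reference genes differed between KI and WT mice by -0.02 on HFD, 0.22 on chow and -0.02 in BAT. Lep relative to this mean was lower in KI mice by 0.59 on HFD (adjusted p = 0.0127) and by 1.81 on chow (adjusted p = 0.0105). In BAT it was lower by 1.31 (adjusted p = 0.101), not past the threshold of 0.05, and without WT mouse 2 by 1.72 (adjusted p = 0.0312). The log2 difference in BAT was -1.08 without WT mouse 4 (adjusted p = 0.196) and -1.03 without WT mouse 5 (adjusted p = 0.198). These are 2-sided exact permutation tests adjusted over 12 ratios.

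Plin1, which coats the lipid droplet and guards it from lipolysis, gave the ratio with the smallest p on HFD. Plin1 itself had a mean RPKM of 286 in WT and 367 in KI mice on HFD, so this ratio does not show Lep alone. Per kilobase, Lep in WT mice on HFD stood at 164% to 431% of Plin1 (median 228%) and in KI mice at 86.3% to 153% (median 128%). Every one of the 8 KI mice lay below every WT mouse. Among the ratios of Lep to each of 13438 genes, 18.3% did so on HFD, and of the levels of single genes 2.43% did. The log2 difference was -0.97 (adjusted p = 0.00186, raw p = 0.000155, the smallest that this exact permutation test can give). On chow Lep stood at 75.2% to 346% of Plin1 in WT and 18.9% to 93.4% in KI mice (log2 difference -1.70, adjusted p = 0.0105, exact permutation test). In BAT it stood at 1.84% to 21.5% in WT and 1.35% to 5.77% in KI mice (-1.36, adjusted p = 0.101, exact permutation test). The ratio in BAT passed the threshold without WT mouse 1 (-1.68, adjusted p = 0.0487) and without WT mouse 2 (-1.76, adjusted p = 0.0312). It was weaker without WT mouse 4 (-1.12, adjusted p = 0.192) and without WT mouse 5 (-1.06, adjusted p = 0.195, all exact permutation tests).

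Relative to Fabp4, the fatty acid carrier of adipocytes, Lep was lower in KI mice by 0.50 on HFD (adjusted p = 0.0255) and 1.51 on chow (adjusted p = 0.0105). In BAT the log2 difference was -1.16 (adjusted p = 0.145, exact permutation tests). On HFD the ratio no longer passed without KI mouse 5 (adjusted p = 0.0538) or KI mouse 6 (adjusted p = 0.0506), and in BAT it passed without WT mouse 2 (-1.58, adjusted p = 0.0312). In BAT it was weaker without WT mouse 4 (-0.94, adjusted p = 0.241) and without WT mouse 5 (-0.83, adjusted p = 0.260).

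The ratio of Lep to Adipoq behaved differently, since Adipoq, the gene of adiponectin, itself fell in KI mice on HFD. On HFD Lep per kilobase was 25.2% to 61.7% of Adipoq in WT mice and 32.6% to 50.7% in KI mice, and the groups overlapped. The log2 difference was 0.24 with the KI mice higher (adjusted p = 0.180, exact permutation test), although without WT mouse 7 it was 0.36 and past the threshold (adjusted p = 0.0301). On chow Lep was 12.2% to 39.5% of Adipoq in WT and 5.19% to 21.5% in KI mice, lower by 0.98 (adjusted p = 0.0430, exact permutation test), which no longer passed without any 1 of WT mice 1, 2, 4, 6 and 7 or KI mice 1, 3 and 4 (adjusted p up to 0.0996). In BAT the log2 difference was -0.68 (adjusted p = 0.355, exact permutation test), which moved from -1.08 without WT mouse 2 to -0.29 without KI mouse 6 and was -0.41 without WT mouse 5 and -0.43 without WT mouse 4.

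**Figure D2:**
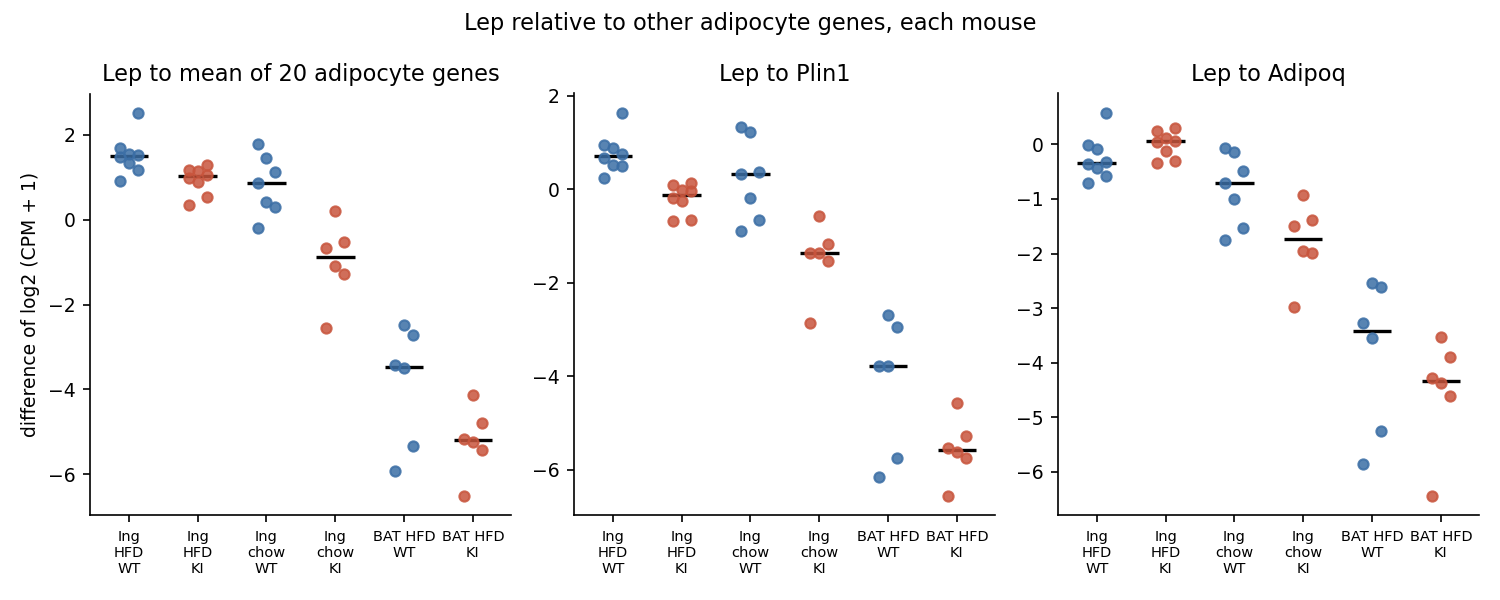
Ratio of Lep to other adipocyte genes in each mouse, as the difference of log2 (CPM + 1), for the mean of 20 adipocyte reference genes, Plin1 and Adipoq, by table and genotype, with a line at each group's median. On HFD the 8 KI mice all lie below the 8 WT mice for Plin1 and overlap them for Adipoq.

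The adipocyte reference genes themselves moved in both directions on HFD, where 4 of 20 were called higher (6.21% of all genes were) and 4 lower, with a median log2 fold change of 0.06 against 0.01 over all genes. Lipe, the hormone-sensitive lipase, rose by 0.54 (adjusted p = 0.00134) and Acsl1, which activates fatty acids, fell by 1.13 (adjusted p = 1.20e-04) in edgeR's test. Among the others called, Pnpla2, Slc2a4 and Trarg1 were higher and Dgat1, Agpat2 and Gpd1 lower. On chow 1 gene, Trarg1, a protein of glucose transporter vesicles, was called and rose by 0.84 (adjusted p = 0.00971), where 1.96% of all genes were called higher. In BAT none of the 20 was called, against 1.36% of all genes called higher and 0.475% lower.

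Lep was set beside 18 other genes of secreted adipocyte proteins. On HFD 4 were called higher and 3 lower, beside 6.21% and 5.24% of all genes. On chow 1 was called higher and 2 lower, beside 1.96% and 1.27% of all genes. In BAT 2 of 17 tested were lower, beside 0.475% of all genes. Their median log2 fold changes were 0.05, -0.34 and 0.07, against 0.01, -0.01 and -0.01 over all genes. Retn, the gene of resistin, was called in all 3 tables, with log2 fold changes of -1.05 (adjusted p = 1.84e-05), -1.23 (adjusted p = 0.00662) and -1.84 (adjusted p = 0.00360). Rbp4, the plasma retinol carrier, was also called in all 3, at -0.91 (adjusted p = 0.00165), -2.36 (adjusted p = 1.57e-05) and -2.89 (adjusted p = 0.00114). All these are from edgeR's test.

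On chow Rbp4 ran from 427 to 574 CPM in WT and from 73.2 to 162 CPM in KI mice, without overlap, and 1.47% of genes tested had every KI mouse below every WT mouse. In BAT Retn ran from 17.1 to 52.7 CPM in WT and from 3.63 to 13.9 CPM in KI mice, again without overlap, and 1.05% of genes tested in BAT were so separated. Adipoq on HFD ran from 2185 to 3185 CPM in WT and from 1213 to 1889 CPM in KI mice and fell by 0.85 on the log2 scale (adjusted p = 1.05e-05). Its log2 fold changes of -0.63 on chow (adjusted p = 0.0164) and -0.67 in BAT (adjusted p = 0.0133) were not called. Lep had a more negative log2 fold change than Adipoq on chow and in BAT, and a larger standard error.

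Other secreted genes rose. Agt, the angiotensin precursor, rose on HFD from a WT mean of 2.12 ± 0.631 to 16.3 ± 4.91 CPM (SD, n = 8 each; log2 fold change 2.95, adjusted p = 4.00e-08 from edgeR). On chow its log2 fold change was -1.71 (adjusted p = 0.137), and in BAT it was too low to test. Apoe, the apolipoprotein, rose on HFD by 1.18 (adjusted p = 7.38e-08). Nrg4, a neuregulin made mainly by brown adipocytes, rose by 0.70 on HFD (adjusted p = 0.00348) and 1.16 on chow (adjusted p = 0.00372). Apln, the gene of apelin, rose on HFD by 0.65 (adjusted p = 0.00612).

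**Figure D3:**
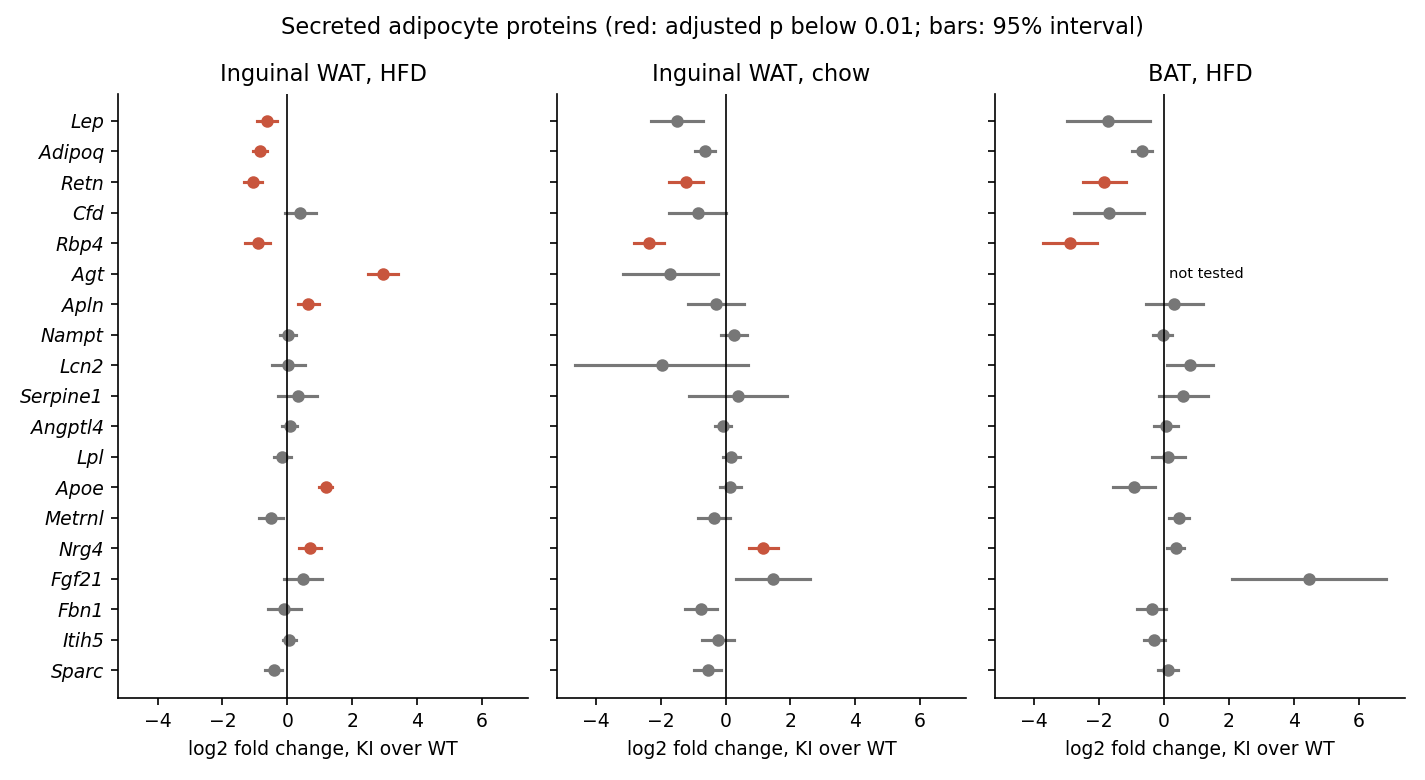
Log2 fold change, KI against WT, of Lep and 18 other genes of secreted adipocyte proteins in the 3 tables, with 95% intervals from edgeR, in red where the adjusted p was below 0.01. Lep is in red for inguinal WAT on HFD only, at -0.62, and its intervals on chow and in BAT are wider, while Retn and Rbp4 are red in all 3 tables.

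A list of 21 transcription factors that act on the leptin gene or bind such promoters included C/EBP factors, Pparg, Sp1 and the subunits of NF-Y. Of these, 19 were tested in each table and 1 was called, on HFD. Of all genes, 11.5% were called on HFD (5.24% lower), 3.23% on chow and 1.83% in BAT. Hif1a, the oxygen-regulated factor, fell on HFD from 71.0 ± 8.57 to 56.6 ± 4.25 CPM (SD, n = 8 each; log2 fold change -0.32, adjusted p = 0.00364 from edgeR). Its log2 fold changes were 0.06 on chow (adjusted p = 0.712) and 0.21 in BAT (adjusted p = 0.280), not called. The list's median log2 fold changes were 0.15, -0.06 and -0.09.

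None of 17 genes of the leptin receptor and its signalling was called in any table, and 16 of them were tested in BAT. The shares of all genes called were 11.5% on HFD, 3.23% on chow and 1.83% in BAT. Lepr, the receptor, was near the detection limit in these tissues, at WT and KI means of 3.20 and 2.50 CPM on HFD and 1.89 and 4.79 CPM on chow, and it was too low to test in BAT. Cish, a feedback inhibitor that cytokine receptors induce through Stat5, had a log2 fold change of 1.45 on chow (adjusted p = 0.0576 from edgeR). The list's median log2 fold changes were 0.02, 0.01 and -0.07. Of 19 genes of insulin and adrenergic control, which set leptin output, 3 were called higher on HFD, beside 6.21% of all genes, and none lower. None was called on chow or in BAT. On HFD Eif4ebp1, a brake on translation that insulin releases, rose by 0.68 (adjusted p = 6.89e-06), and the insulin signalling kinase Akt2 by 0.40 (adjusted p = 0.00984).

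Leptin is secreted through the endoplasmic reticulum (ER). Of 24 genes of the ER secretory machinery, 3 were called higher and 1 lower on HFD, 1 higher on chow and 1 higher in BAT, beside 6.21% of all genes higher and 5.24% lower on HFD, 1.96% higher on chow and 1.36% higher in BAT, with medians of 0.03, 0.01 and -0.03. Ero1l, the ER oxidase that makes disulphide bonds, was the one called in all 3 tables, and rose by 0.45 (adjusted p = 0.00212), 1.08 (adjusted p = 7.67e-04) and 1.35 (adjusted p = 0.00877). Xbp1, a factor of the unfolded protein response, rose by 0.41 (adjusted p = 8.71e-04) and the chaperone Pdia4 by 0.38 (adjusted p = 0.00324) on HFD. Sec24d, a coat protein of vesicles that leave the ER, fell by 0.42 on the log2 scale there (adjusted p = 0.00259). Of another list, 10 of 18 integrated stress response genes were called higher on HFD, 7 on chow and 8 in BAT, and none lower, with medians of 0.92, 0.74 and 1.29. Asns, Atf5, Ddit3, Mthfd2, Ppp1r15a and Trib3 were called in all 3 tables. This list was drawn up with earlier results of these data known and is no independent evidence of its direction.

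Within WT mice, Lep was compared with Adipoq, Mest, Sfrp5, Npr3, Atf5 and the adipocyte reference mean in each table, 18 relations in all, on log2 (CPM + 1) with 2-sided exact permutation tests. In BAT, Npr3, the clearance receptor for natriuretic peptides, followed Lep closely (Pearson r = 0.988, Spearman rho = 1, permutation p = 0.00139 and 0.00278, adjusted p = 0.0125 and 0.025, n = 6). Atf5, a stress response transcription factor, did so too (r = 0.932, rho = 1, permutation p = 0.00139 and 0.00278, adjusted p = 0.0125 and 0.025, n = 6). Without the 2 mice farthest from the median level of the compared gene itself, r was 0.980 for Npr3 and 0.780 for Atf5. WT mice 1 and 2, with muscle transcripts, are the low end of both. With any 1 of the 6 mice left out, r stayed between 0.979 and 0.999 for Npr3 and between 0.850 and 0.986 for Atf5. The smallest p that 5 mice gave was 0.00833, which did not pass after adjustment (lowest adjusted permutation p = 0.0510), so those fits say nothing about the threshold.

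The other 16 relations did not pass. For Npr3, r was 0.590 on HFD (rho = 0.786, permutation p = 0.123, adjusted p = 0.245, n = 8) and 0.436 on chow (rho = 0.679, permutation p = 0.326, adjusted p = 0.534, n = 7). Mest, an imprinted gene whose level follows the expansion of fat, had r = -0.885 on HFD (rho = -0.667, n = 8), 0.864 on chow (rho = 0.857, n = 7) and 0.841 in BAT (rho = 0.829, n = 6), with permutation p values of 0.0142, 0.0131 and 0.0417 and adjusted p values of 0.0510, 0.0510 and 0.125. The sign on HFD was thus opposite to that in the other tables. Without the 2 mice farthest from the median Mest level, r was -0.415, 0.506 and 0.526. In the 8 KI mice on HFD r was 0.839. Mest passed the threshold on HFD without WT mouse 2 (r = -0.950, adjusted permutation p = 0.0464) and on chow without WT mouse 3 (r = 0.979, adjusted permutation p = 0.0167). Atf5 in WT mice on HFD had r = 0.888 (rho = 0.619, permutation p = 0.00898, adjusted p = 0.0510, n = 8), which fell to 0.163 without the 2 farthest mice, so it rested on them, and passed without WT mouse 3 (r = 0.924, adjusted permutation p = 0.0476). In WT mice on chow Atf5 had r = -0.177 (rho = -0.321, permutation p = 0.676, adjusted p = 0.760, n = 7). In KI mice r for Atf5 was 0.065 on HFD, -0.309 on chow and 0.842 in BAT. Adipoq in WT mice had r = -0.06 on HFD (rho = 0.167, permutation p = 0.896, n = 8) and 0.07 on chow (rho = 0.286, permutation p = 0.872, n = 7).

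The genes nearest to Lep were ranked by Pearson r over the 21 WT columns after each table's own WT mean had been taken off, among 13438 genes with a mean of at least 1 CPM in WT mice in every table. Only genes with r above 0 in each table were taken. The 10 highest included Slc41a2, a magnesium transporter (r = 0.938), Cela1, an elastase (0.918), Anxa1, an annexin that dampens inflammation (0.892), Hk1, a hexokinase (0.889), Npr3 (0.885), C130074G19Rik (0.878), Lrrc8b, a subunit of volume-regulated anion channels (0.873), Adm, the vasodilator peptide adrenomedullin (0.866), and Sgms2, a sphingomyelin synthase (0.857). The 5 lowest with r below 0 in each table ran from -0.860 for Pabpc4, a poly(A)-binding protein, over Txlng (-0.855), Pspc1 (-0.830) and the translation initiation factor Eif4b (-0.825) to the splicing factor Srrm1 (-0.824).

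These values are a description. Lep varied most in BAT, and r of the 10 highest lay between 0.940 and 0.989 there, but between 0.256 and 0.927 on HFD and between 0.316 and 0.895 on chow. The 20 KI columns took no part in the choice. In them the 10 genes had r from -0.26 to 0.93 with a median of 0.485, and 8 of 10 were above 0, while 49.9% of all ranked genes were. That median lay between 0.137 and 0.549 when the 10 genes were chosen anew with 1 WT mouse left out, with 0.137 without BAT mouse 1, 0.170 without BAT mouse 2, 0.233 without mouse 1 on HFD and 0.280 without mouse 5 on chow. Npr3 (0.928) and Anxa1 (0.915) ranked 2 and 3 of all genes in KI mice, and Npr3 had r of at least 0.860 in each KI table. In WT mice its r of 0.885 leaned on BAT, where it was 0.988, against 0.590 on HFD and 0.436 on chow. Slc41a2, first in WT mice, had r = -0.263 in KI mice. With each WT mouse left out in turn, 5 to 10 of the 10 genes stayed among the 10 highest, and Anxa1 did so in all 21 cases. By Spearman's rho 5 of 10 stayed.

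**Figure D4:**
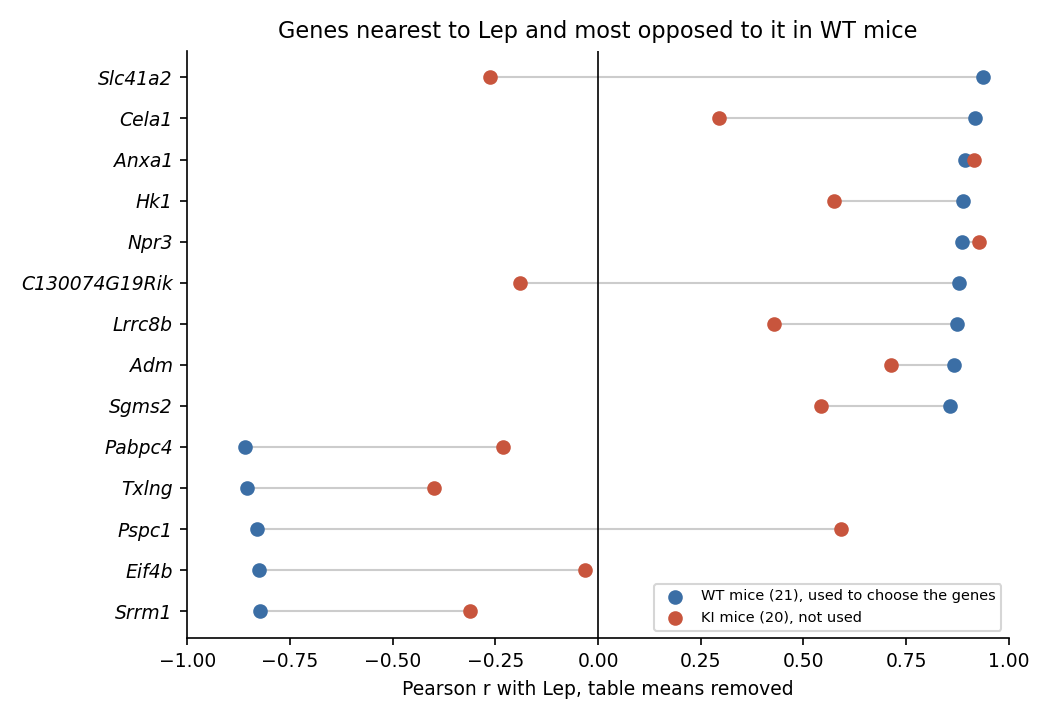
Pearson r with Lep after each table's mean was taken off, over 21 WT columns and over 20 KI columns, for 9 of the 10 genes nearest to Lep in WT mice and the 5 farthest below 0. Npr3 (0.885 and 0.928) and Anxa1 (0.892 and 0.915) have about the same r in both genotypes, while Slc41a2 goes from 0.938 to -0.263.

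Of the lists, the 6 genes that follow fat mass (Mest, Sfrp5, Bmp3, Npr3, Cav1 and Nnat) had a median r with Lep of 0.547 in WT and 0.763 in KI mice, and all 6 were above 0 in WT mice. Each such r was pooled over the 3 tables, and Lep varied most in BAT. Within WT mice on HFD alone, Mest had r = -0.885, against 0.359 for Sfrp5 and 0.590 for Npr3. The adipocyte reference genes had medians of -0.03 and -0.08 and the integrated stress response genes 0.280 and 0.394. Over all ranked genes the median r in WT mice was 0.048. Between genotypes, 1 of the 6 fat mass genes was called on HFD, none on chow and 1 in BAT, where 11.5%, 3.23% and 1.83% of all genes were called. Mest fell on HFD from 1260 ± 184 to 342 ± 73.8 CPM (SD, n = 8 each; log2 fold change -1.88, adjusted p = 2.73e-08 from edgeR). Sfrp5, a secreted Wnt inhibitor that marks expanding fat, fell by 1.85 on the log2 scale in BAT (adjusted p = 0.00810). On chow all 6 log2 fold changes were negative, with a median of -1.01 against -0.01 over all genes, and Mest (-1.86, adjusted p = 0.0923) and Sfrp5 (-1.96, adjusted p = 0.0838) were not called. On HFD 4 of the 6 were positive, with a median of 0.14, and in BAT 5 were negative, with a median of -0.78.

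Npr3, whose relation with Lep passed the test within WT mice in BAT alone, was not called between the genotypes. Its log2 fold changes were 0.39 on HFD (adjusted p = 0.0192), -0.44 on chow (adjusted p = 0.348) and 0.17 in BAT (adjusted p = 0.807), from edgeR. On HFD the mean was 961 ± 145 CPM for WT and 1254 ± 212 CPM for KI (SD, n = 8 each). In BAT the mean was 196 ± 111 CPM for WT and 224 ± 48.3 CPM for KI (SD, n = 6 each), beside 106 and 32.2 CPM of Lep.

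**Figure D5:**
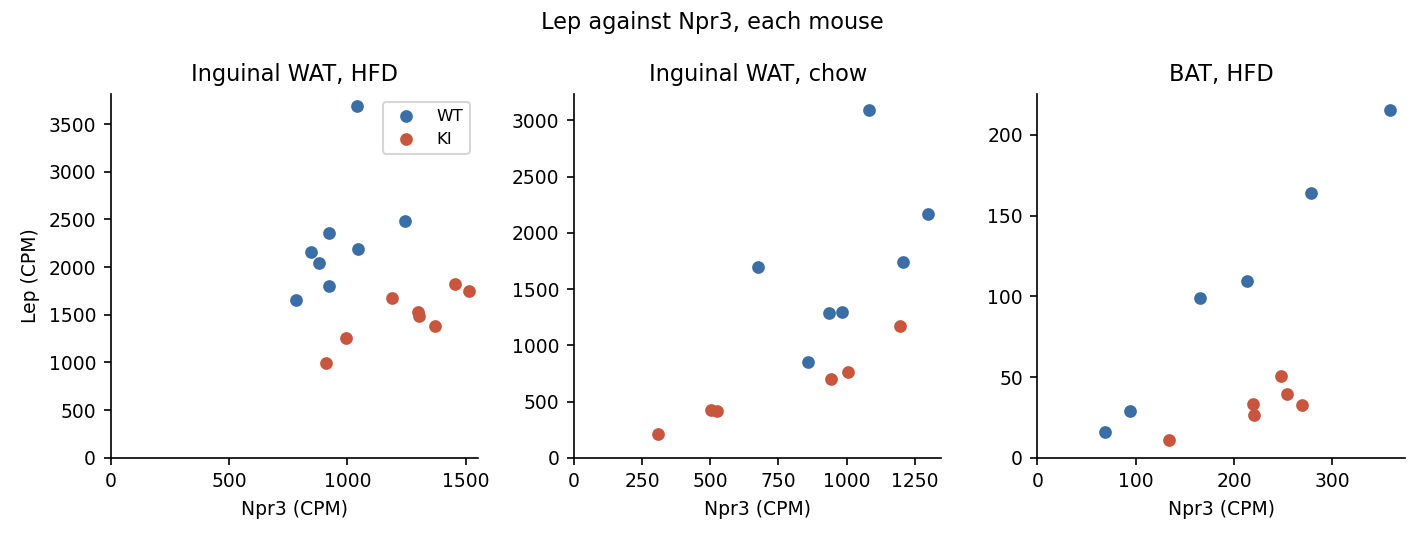
Lep against Npr3 in each mouse (CPM, linear axes from 0) in inguinal WAT on HFD, inguinal WAT on chow and BAT on HFD, for WT and KI mice. In each panel the KI mice lie below the WT mice of like Npr3 level, and in BAT the WT mice run from 16.2 CPM of Lep at 68.5 CPM of Npr3 upwards along a line.

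The genes beside Lep on chromosome 6 did not share a direction. Upstream, Snd1 had log2 fold changes of 0.08, 0.27 and 0.38 (adjusted p = 0.597, 0.0702 and 0.0654) and Lrrc4 of -0.70 on HFD and -1.17 on chow (adjusted p = 0.184 and 0.0652), while Pax4 was too low to test. Downstream, Rbm28, a ribosome assembly factor 49.7 kb away, fell by 0.38 on the log2 scale on HFD (adjusted p = 0.00586), and Prrt4 rose on HFD by 1.47 (adjusted p = 0.00500) and on chow by 2.27 (adjusted p = 5.90e-04), at means of at most 6.92 CPM. Impdh1, a purine synthesis enzyme, had 0.22, 0.38 and 0.21 (adjusted p = 0.239, 0.0128 and 0.611), not called.

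Markers of other cell types moved beside Lep in some tables. Over 10 brown adipocyte-selective genes, WT mice on chow summed to 45.2 to 127 CPM and KI mice to 162 to 864 CPM, without overlap (4.22% of single genes did not overlap), though Ucp1 stayed at means of 0.188 and 0.341 CPM. Of the 10, 5 were tested on chow, where 4 had positive and 1 a negative log2 fold change. The 2 called there were Cidea and Cox8b, brown fat genes of lipid droplets and of the respiratory chain. They rose by 3.02 (adjusted p = 0.00570) and 2.41 (adjusted p = 0.00143) in edgeR's test. On HFD 5 were also tested, 3 positive and 2 negative, and 2 were called higher. Of all genes, 1.96% were called higher on chow and 6.21% on HFD. In BAT all 10 were tested and none was called. Over 8 white adipocyte-selective genes other than Lep, the sums ran from 2439 to 8347 CPM in WT and 1299 to 3790 CPM in KI mice on chow. In BAT they ran from 166 to 534 CPM in WT and 54.9 to 247 CPM in KI mice. On HFD they ran from 3538 to 5037 CPM in WT and 2324 to 4591 CPM in KI mice. There 5 of 7 tested members had positive log2 fold changes (median 0.19), and 2 were called lower, beside 5.24% of all genes. On chow 2 of 7 tested were positive and 5 negative, and 1 was called lower, beside 1.27% of all genes. In BAT all 5 tested were negative, and 1 was called lower, beside 0.475% of all genes. KI mouse 4 on chow had 64616 CPM over 8 skeletal muscle genes, and without it the log2 fold change of Lep on chow was -1.41 (adjusted p = 0.0490). The part of these transcripts in the level of Lep was not tested. Sums of other markers overlapped between the genotypes in every table but were often lower in KI mice. The lymphocyte sum had WT and KI medians of 819 and 120 CPM on HFD and of 507 and 185 CPM on chow. The single lymphocyte genes did not follow this sum on chow, where 7 of 8 tested had positive log2 fold changes (median 1.53). On HFD 7 of 9 were negative, with a median of only -0.05. The fibroblast and preadipocyte sum on HFD had medians of 3098 and 2267 CPM, and the macrophage sum of 1003 and 657 CPM. Of 9 macrophage genes, 8 had negative log2 fold changes on HFD and 9 each on chow and in BAT. Itgax of myeloid cells (-1.44, adjusted p = 0.00180), Ighm of B cells (-2.56, adjusted p = 1.39e-04) and the fibroblast gene Lum (-1.39, adjusted p = 9.80e-05) were called lower on HFD, and the fibroblast gene Pi16 in BAT (-1.62, adjusted p = 0.00165). Their part in the level of Lep was likewise not tested. Endothelial sums had WT and KI medians of 1652 and 1638 CPM on HFD, 1263 and 1120 CPM on chow and 1723 and 1585 CPM in BAT, and epithelial markers summed to at most 127 CPM.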

How the data were processed

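The authors deposited raw counts of reads per gene, 1 table for each tissue and diet. The labels name cutadapt, STAR, SAMtools, featureCounts and GRCm38 and no versions. Counts were used as deposited, after 1884 entries without length or count and repeats of 99 shared symbols were left out. GEO lists 2 technical libraries for each mouse of inguinal WAT on HFD, which has 1 column a mouse, and how they were combined is not given in the sources used here. CPM used TMM sizes over all 41 columns.

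Separate edgeR fits (version 4.0.16, R 4.3.3) were made for each comparison (TMM, filterByExpr, robust quasi-likelihood, Benjamini-Hochberg over all genes tested). Standard errors are the log2 fold change over the root of F. Ratios and relations in WT mice were tested by 2-sided exact permutation in Python 3.11.15, with a prior of 1 CPM, at an adjusted p below 0.05. Tests were checked on simulated counts.

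The gene, its lists, the tests and the rule for named genes were chosen with earlier results of these data known. The rule names Lep, Mfn2, partner and ratio genes, the 10 nearest and 5 farthest genes, 3 neighbours on each side and called list members, at most 4 a direction, of which some are not reported here. Alternatives were DESeq2 1.42.0, other size factors and filters, a replicate block, 1 fit of all groups and each mouse left out. Promoter windows are from RefSeq.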

Additional observations from a re-analysis of the deposited data

Results flagged for a closer look

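The level of Lep and its ratios were examined in each of the 6 groups for a single mouse far from the rest, 30 checks in all. Such a mouse was found in 3 checks. Chance alone marks about 1 in 20 checks, or 5%. All of these measures contain Lep, so the checks overlap and their number cannot be weighed against that share. In inguinal WAT on HFD, WT mouse 7 had 3686 CPM of Lep, and the next highest WT mouse had 2489 CPM. The same mouse was far from the others in the ratio of Lep to Fabp4, at -1.92 on the log2 scale against -2.89 for the next. Without it the log2 fold change of Lep on HFD was -0.49 (adjusted p = 0.00839 from edgeR). In BAT, KI mouse 6 had a log2 ratio of Lep to Adipoq of -6.45, and the next lowest KI mouse had -4.61. It had 69 counts of Lep, the fewest of all mice, and 886 CPM over 8 skeletal muscle genes, against 3.35 to 170 CPM in the other KI mice. The part of muscle transcripts in this ratio was not tested.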

How the results depend on the processing

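Lep kept its direction in every comparison and alternative run. On HFD the log2 fold change was -0.63 (adjusted p = 0.241) in 1 fit of all 6 groups, which shares 1 estimate of spread with the BAT mice, and -0.68 to -0.49 with each mouse left out, called in 8 of 16 fits. On chow Lep was called by DESeq2 (-1.50) and in 1 fit of all groups (-1.49, adjusted p = 0.00855). The added exact permutation test of Lep alone gave -1.59 with an unadjusted p = 0.00291, which is not a call. With each mouse left out, Lep on chow ranged from -1.79 to -1.30. In BAT it was called in 1 fit of all groups (-1.71, adjusted p = 0.00543) and in none of 12 fits with a mouse left out (-1.95 to -1.38). The cause of the other changes was not tested. KI mice on HFD against chow gave 1.10 to 1.56, called in 14 of 14.

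Mouse numbers are shared across groups. Same-numbered WT and KI mice had median correlations of -0.16, -0.07 and -0.02, and 1 of 8, 1 of 6 and 2 of 6 mice were closest to their own number. Single pairs on HFD ran from -0.26 to 0.67. The paper states that littermates of mixed genotype shared cages, but not whether the numbers follow litter or cage. These correlations cannot show whether same-numbered mice were related. WT mice of the same number in BAT and inguinal WAT on HFD had a median correlation of 0.125, and 3 of 6 were closest to their own number. With the number as a replicate block, Lep gave -0.60 on HFD (adjusted p = 0.0105), -1.63 on chow (adjusted p = 0.0520) and -1.45 in BAT (adjusted p = 0.247), KI mice on HFD against chow 1.39 (adjusted p = 0.0330), and the ratios to adipocyte genes -0.59 on HFD and -1.80 on chow (each adjusted p = 0.125, fewer divisions). The block called 102 genes on chow.

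The ratio in BAT ranged from -1.72 to -1.03 with each mouse left out. Relations in WT mice past the threshold numbered 5 on CPM without log and 0 to 4 with a mouse left out (0 without any 1 BAT mouse, 4 without WT mouse 3 on chow). Genes called numbered 1242 on HFD, 1088 on chow and 834 in BAT in 1 fit of all groups, and 1121 on chow and 715 in BAT by DESeq2, against 1886, 472 and 243. With each mouse left out they numbered 288 to 497 on chow and 134 to 313 in BAT. In BAT the fewest counts of Lep in a mouse were 69 in KI and 147 in WT mice, whose counting error is 0.17 and 0.12 on the log2 scale, against SDs between mice of 0.72 and 1.44.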

Other observations

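The level of Lep for a given level of Npr3 separated the genotypes in all 3 tables, although neither gene did so alone. The pair was picked after its values had been seen, so these are descriptions without a test. Of 13438 genes, the ratio of Lep to the gene put every KI mouse below every WT mouse for 18.3% on HFD, 10.2% on chow and 0.521% in BAT, and in all 3 tables for 25 genes (0.186%). On HFD the ratio of Lep to Npr3 CPM had a median of 2.21 in WT mice, with a range of 1.96 to 3.55, and of 1.17 in KI mice, with a range of 1.01 to 1.41. On chow the medians were 1.44 in WT mice (0.992 to 2.86) and 0.775 in KI mice (0.683 to 0.982), where the nearest mice of the genotypes almost touch. In BAT they were 0.552 in WT mice (0.237 to 0.600) and 0.136 in KI mice (0.0828 to 0.205). WT BAT mice 1 and 2, which lay among the KI mice for Lep, lay outside their range for this ratio.

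The ratio of Lep to Anxa1 CPM, the other gene near the top in both genotypes, also kept the genotypes apart on HFD (3.78 to 5.56 in WT and 1.62 to 3.05 in KI mice) and on chow (2.09 to 4.41 and 1.20 to 1.89). In BAT the ranges overlapped, at 0.448 to 2.02 in WT and 0.457 to 0.794 in KI mice.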
